A study of Mus musculus with 4 samples.

Results

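Plasminogen activation and blood coagulation were followed in mouse peritoneal macrophages through 8 genes of the 54532 in the deposited table: Plau, Plaur, Serpinb2, F3, F7, F10, F13a1 and Thbs1. The genes were found by their symbols in the count table, and they had been chosen by their role and on their measured ratios between these same libraries. Their own values are therefore given as a description, without a test. All 8 passed the filter of at least 10 reads in at least 1 library, which kept 13715 genes. The lowest count of a member in any library was 6 reads.

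Urokinase, a secreted serine protease, cuts plasminogen to plasmin, which dissolves fibrin and opens the extracellular matrix. Its receptor holds it on the cell surface, and serpins such as PAI-2 inactivate it. Clotting runs the other way: tissue factor binds factor VII, the complex activates factor X, thrombin then makes fibrin, and factor XIII cross-links it. Macrophages carry parts of both systems, and in inflamed tissue and tumours they can supply both the protease and the clotting factors.

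The study asked how medium conditioned by 4T1 cells, a mouse mammary carcinoma line, acts on macrophages through the aryl hydrocarbon receptor (AHR), a ligand-activated transcription factor that CH223191 blocks. Macrophages (peritoneal fluid, genotype WT) were kept in normal medium (0% 4T1) or in medium with 30% 4T1-conditioned medium (4T1-CM), each with the solvent DMSO or with 10 µM CH223191, giving 4 libraries of total RNA, 1 for each condition. The study's methods describe thioglycollate-elicited cells of BALB/c mice. How long these cells were treated, and how many animals supplied them, is not given in the labels.

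The libraries held between 15535405 and 17557127 reads, and between 17395 and 18665 genes had a read. The macrophage markers were abundant in all 4. None of the 9 was at 0, Lyz2 led, and their summed level was 14474 and 18642 CPM (counts scaled to a library of 1000000 reads) without 4T1-CM, DMSO before CH223191, and 40751 and 43542 CPM with it. Values of the 4 libraries are listed in that order throughout. With 1 library per condition no difference could be tested against replicates. Each log2 ratio is followed by an exact 95% interval (Clopper-Pearson, on how a gene's reads divide between 2 libraries). Such an interval accounts for the error of counting alone, and it sets 1 library against another rather than 1 condition against another. In bulk RNA, fewer cells of a type and less RNA per cell cannot be told apart.

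The 8 genes responded to 4T1-CM in 3 ways. Serpinb2, F13a1 and Thbs1 were higher in 4T1-CM, Plau, F7 and, by less than 2-fold, Plaur were lower, and F3 stayed level. F10 was level with DMSO and slightly lower with CH223191. Between CH223191 and DMSO, only Serpinb2 differed at least 2-fold.

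The start regions of the genes were read first, since members that were higher, lower and level could share or lack a factor's short recognition sequence. RefSeq windows of 300 bases, 250 before and 50 after the start (GRCm38.p6, the C57BL/6J reference), matched 6 of the 8 members in 8 windows. Plau and Thbs1 had no entry. On both strands, the AP-1 sequence TGANTCA lay in the windows of Serpinb2, Plaur and F3, and it lies in 7.81% of the 32851 windows of all genes. The AHR core GCGTG, found in 32.4% of all windows, and the NF-kB consensus, found in 4.51%, matched none of the 8 windows of the 6 members. The 250 bases upstream of the start are shown for the 3 genes with an AP-1 match, because their responses to 4T1-CM differed (higher, lower and level). The capitals mark the AP-1 matches, and all 3 genes lie on the plus strand, at chr1:107511173-107511422 for Serpinb2, chr7:24462233-24462482 for Plaur and chr3:121723287-121723536 for F3.
Serpinb2: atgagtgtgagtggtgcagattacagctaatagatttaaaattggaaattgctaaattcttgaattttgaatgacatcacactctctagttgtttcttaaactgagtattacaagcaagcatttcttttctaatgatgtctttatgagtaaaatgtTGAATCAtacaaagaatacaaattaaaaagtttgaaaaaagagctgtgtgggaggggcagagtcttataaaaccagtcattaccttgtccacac
Plaur: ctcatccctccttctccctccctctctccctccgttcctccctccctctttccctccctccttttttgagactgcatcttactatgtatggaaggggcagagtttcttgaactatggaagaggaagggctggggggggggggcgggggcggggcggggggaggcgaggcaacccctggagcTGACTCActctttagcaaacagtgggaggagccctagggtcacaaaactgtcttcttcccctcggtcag
F3: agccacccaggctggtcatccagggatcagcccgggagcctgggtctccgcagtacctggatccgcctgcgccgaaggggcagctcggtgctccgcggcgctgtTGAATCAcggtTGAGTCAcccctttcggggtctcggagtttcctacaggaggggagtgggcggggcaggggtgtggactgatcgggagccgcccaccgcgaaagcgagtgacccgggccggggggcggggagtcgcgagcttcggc

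The match began 94 bases before the first start of Serpinb2, 69 before that of Plaur, and 146 and 135 before that of F3. TGAATCA was the form in Serpinb2 and at the farther match of F3, TGACTCA that in Plaur and TGAGTCA that at the nearer match of F3. Serpinb2 also held the only STAT match (TTCNNNGAA, in 8.3% of all windows) as TTCCAAGAA, beginning 10 bases after that start. The windows of F7, F10 and F13a1 held none of the 4 sequences. The window of Serpinb2 had a GC content of 35.3%, that of Plaur 59.3% and that of F3 70.3%, beside a median of 52.7% over all windows. The AP-1 match was thus common to 3 genes with 3 kinds of response, and a match is a run of letters, not a site shown to be bound.

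Plau encodes urokinase (uPA), the activator of plasminogen, and lies at chr14:20836660-20843385 (GRCm38, GENCODE M21, plus strand, up to 11 exons). Without 4T1-CM it had 12306 reads (DMSO) and 11213 reads (CH223191), and with 4T1-CM 5544 and 4200. Scaled to library size these were 772, 705, 317 and 259 CPM. Both libraries in normal medium were above both in 4T1-CM. The log2 ratio of 4T1-CM to normal medium was -1.29 with DMSO (interval -1.33 to -1.24) and -1.45 with CH223191 (-1.50 to -1.40), or 2.44-fold and 2.73-fold lower. The library with CH223191 was also the lower in each medium, by a log2 ratio of -0.13 (-0.17 to -0.09) in normal medium, against -0.29 (-0.35 to -0.24) in 4T1-CM.

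Plaur encodes the urokinase receptor (uPAR), a membrane-anchored protein that gathers uPA at the cell surface, and lies at chr7:24462484-24475968 (plus strand, up to 7 exons). In the same order it had 4785, 5707, 3333 and 3098 reads, or 300.2, 359, 190.4 and 190.7 CPM. The library in normal medium with CH223191 was the highest, and the libraries in 4T1-CM were nearly equal. The log2 ratio for 4T1-CM was -0.66 with DMSO (-0.72 to -0.59) and -0.91 with CH223191 (-0.98 to -0.85), in the direction of Plau and under 2-fold in both. CH223191 against DMSO gave 0.26 (0.20 to 0.31) in normal medium, against 0.00 (-0.07 to 0.07) in 4T1-CM.

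Serpinb2 encodes plasminogen activator inhibitor 2 (PAI-2), a clade B serpin that inhibits uPA and remains largely inside the cell, and lies at chr1:107511423-107535478 (plus strand, up to 8 exons). It had 13, 6, 825 and 365 reads. The levels were 0.815, 0.377, 47.1 and 22.5 CPM, so the gene was close to undetected without 4T1-CM. Its log2 ratio for 4T1-CM was the highest of the 8 genes in both comparisons, at 5.80 with DMSO (5.07 to 6.77) and 5.78 with CH223191 (4.76 to 7.35), or 55.7-fold and 55.0-fold. Of the 13715 genes, 40 had a higher ratio with DMSO and 34 with CH223191.

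Serpinb2 was also the only member that was at least 2-fold different with CH223191. In 4T1-CM it was 2.10-fold lower with the inhibitor, a log2 ratio of -1.07 (-1.25 to -0.89). In normal medium the log2 ratio was -1.05 (-2.79 to 0.38), an interval that includes 0, since it rests on 13 against 6 reads. The responses to 4T1-CM with and without the inhibitor differed by less than this error. The log2 ratio with CH223191 minus that with DMSO was -0.02 (-1.42 to 1.39), and the interval spans differences of over 2-fold in either direction. Serpinb10, a neighbouring serpin that overlaps the locus on the same strand and shares 10.4% of the 50-base words of Serpinb2, had 0 reads in all 4 libraries.

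**Figure D1:**
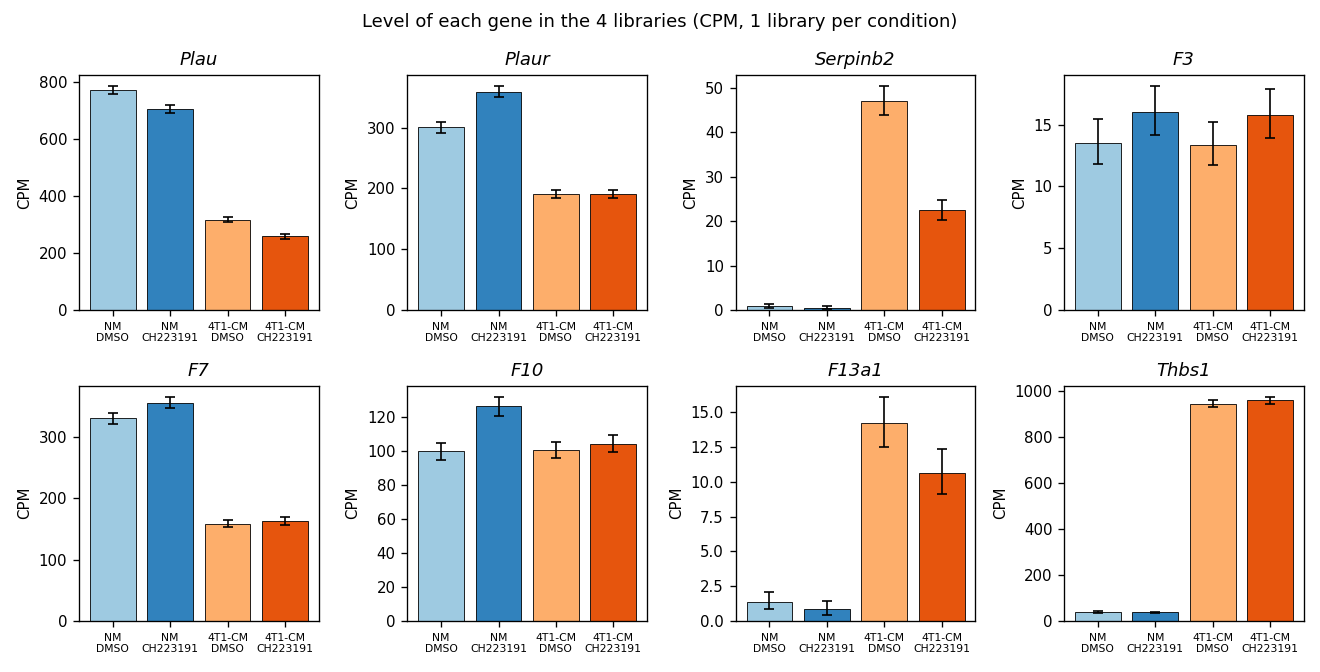
Level of each of the 8 genes in the 4 libraries, in CPM on a linear axis from 0 (NM, normal medium; 1 library per bar; error bars, exact Poisson 95% intervals of the count, counting error only). Plau and F7 stand higher in normal medium, Serpinb2, F13a1 and Thbs1 stand higher in 4T1-CM, and F3 differs little among the 4 libraries.

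F3 encodes tissue factor, the membrane receptor that starts clotting, and lies at chr3:121723537-121735048 (plus strand, up to 6 exons). It was counted with 216, 255, 234 and 257 reads, or 13.6, 16.0, 13.4 and 15.8 CPM. The libraries differed by little more than counting error, and the pair with CH223191 was the higher. The log2 ratio for 4T1-CM was -0.02 with DMSO (-0.29 to 0.25) and -0.02 with CH223191 (-0.28 to 0.24), so a change of more than about 0.3 on the log2 scale in either direction would lie outside the counting error of these libraries. CH223191 against DMSO gave 0.24 in both media, with intervals that include 0 (-0.02 to 0.51 in normal medium).

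F7 encodes factor VII, the protease that tissue factor binds, made mainly by the liver, and lies at chr8:13026034-13035809 (plus strand, up to 8 exons). It had 5269, 5667, 2777 and 2642 reads, or 331, 356, 159 and 163 CPM. Like Plau, it was higher in both libraries in normal medium than in either in 4T1-CM. The log2 ratio was -1.06 with DMSO (-1.13 to -0.99) and -1.13 with CH223191 (-1.20 to -1.07), or 2.08-fold and 2.19-fold lower, just beyond 2-fold. CH223191 against DMSO gave 0.11 (0.05 to 0.16) in normal medium, against 0.04 (-0.04 to 0.11) in 4T1-CM.

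F10 encodes factor X, which the tissue factor and factor VII complex activates, and lies at chr8:13037308-13056676 (plus strand, up to 9 exons), 1498 bases beyond the end of F7. It had 1590, 2007, 1761 and 1694 reads, or 99.7, 126, 101 and 104 CPM. Only the library in normal medium with CH223191 stood above the rest. The log2 ratio for 4T1-CM was 0.01 with DMSO (-0.09 to 0.11) and -0.28 with CH223191 (-0.37 to -0.18), and CH223191 against DMSO gave 0.34 (0.24 to 0.44) in normal medium, against 0.05 (-0.05 to 0.15) in 4T1-CM. The neighbours F7 and F10 thus differed in these libraries: both ratios of F7 for 4T1-CM lay below -1, and neither of F10 did.

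F13a1 encodes the catalytic A subunit of factor XIII, the transglutaminase that cross-links fibrin, and lies at chr13:36867178-37050244 (minus strand, up to 15 exons). It was counted with 22, 13, 249 and 173 reads, or 1.38, 0.817, 14.2 and 10.6 CPM. Both libraries in 4T1-CM were above both in normal medium, and the counts in normal medium were low. The log2 ratio was 3.34 with DMSO (2.73 to 4.07) and 3.65 with CH223191 (2.89 to 4.64), or 10.1-fold and 12.6-fold higher. CH223191 against DMSO gave -0.73 in normal medium (-1.87 to 0.30) and -0.42 in 4T1-CM (-0.71 to -0.13), where the interval lay below 0.

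Thbs1 encodes thrombospondin 1, a secreted matrix protein, abundant in platelets, that binds CD36 and CD47, and lies at chr2:118111876-118127133 (plus strand, up to 22 exons). It had 615 and 590 reads in normal medium and 16561 and 15619 in 4T1-CM. In CPM these were 38.6, 37.1, 946 and 961, and the libraries of each medium were close to each other. The log2 ratio was 4.61 with DMSO (4.50 to 4.73) and 4.70 with CH223191 (4.58 to 4.82), or 24.5-fold and 25.9-fold higher. With CH223191 the difference from DMSO was -0.06 (-0.22 to 0.11) in normal medium, against 0.02 (-0.01 to 0.05) in 4T1-CM, so in 4T1-CM an effect of the inhibitor beyond 0.05 on the log2 scale lay outside the counting error.

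Platelets and fibroblasts also carry Thbs1 or F13a1, and their markers were read in the same libraries. The 9 platelet markers summed to 7.21, 7.92, 83.5 and 46.5 CPM, and 5 of the 9 were higher in 4T1-CM in both comparisons. In 4T1-CM nearly all of that was Pf4, with 71, 82, 1386 and 685 reads. Ppbp had 0, 0, 11 and 2 reads, Itga2b 4, 2, 10 and 15, Tubb1 0, 2, 5 and 9, and Gp1ba 11, 10, 20 and 12. Gp9 and Gp1bb, defining for the platelet lineage, had 0 reads in every library. The 7 fibroblast markers summed to 64.9, 31.0, 157 and 134 CPM, 5 of the 7 were higher in both comparisons, none was at 0 in every library, and Col1a2 led. The 9 neutrophil markers summed to 67.6, 74.6, 242 and 181 CPM, and 4 of the 9 were higher in both comparisons. Mmp8 among them had 35, 21, 2142 and 759 reads, S100a8 had 99, 190, 560 and 412 and Csf3r had 929, 959, 1521 and 1759. Camp had 0, 4, 4 and 6 reads. Cxcr2, with 12, 9, 2 and 0 reads, and Ltf, with 2, 4, 1 and 1, were lower in 4T1-CM. S100a9, Ly6g and Retnlg had 0 reads in all 4 libraries. What part the cells of these 3 lists had in the ratios was not tested.

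**Figure D2:**
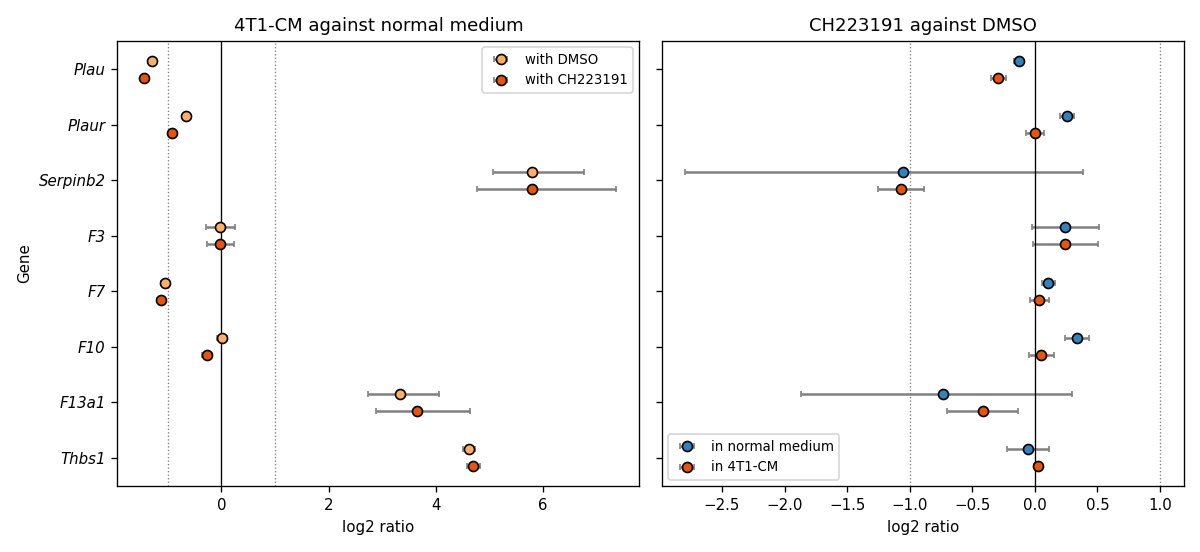
Log2 ratio of each gene for 4T1-CM against normal medium (left; with DMSO and with CH223191) and for CH223191 against DMSO (right; in each medium), with Clopper-Pearson 95% counting intervals and dotted lines at 2-fold. Serpinb2, F13a1 and Thbs1 lie to the right of 2-fold on the left panel, Plau and F7 to its left, and on the right panel only Serpinb2 passes 2-fold.

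Counted at 2-fold with DMSO, 3 of the 8 genes were higher in 4T1-CM, beside 12.2% of the 13715 genes, and 2 were lower, beside 6.12%. With CH223191, 3 were higher, beside 12% of all genes, and 2 were lower, beside 7.86%. These 2 comparisons share no library, and 3 members were higher in both (Serpinb2, F13a1 and Thbs1; 8.18% of all genes) and 2 lower in both (Plau and F7; 3.38%). The median log2 ratio of the 8 genes was 0.00 with DMSO and -0.15 with CH223191, beside 0.01 and 0.02 over all genes. The members lay on both sides of that median, from -1.29 to 5.80 with DMSO. Because the genes were chosen with these ratios known, nothing is read from the counts.

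With the inhibitor in normal medium, 0 of the 8 were at least 2-fold higher, beside 4.84% of all genes, and 1 was lower, beside 3.31%. In 4T1-CM 0 were higher, beside 2.8%, and 1 was lower, beside 2.62%. These comparisons also share no library. In both together 0 were higher (0.678% of all genes) and 1 was lower (0.481%). The 1 gene was Serpinb2 each time, and in normal medium its ratio rests on the 13 and 6 reads given above. The 8 had medians of 0.03 (normal medium) and 0.01 (4T1-CM) on the log2 scale, against 0.00 over all genes in either medium.

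The response to 4T1-CM was also set side by side without and with CH223191. The log2 ratio with the inhibitor minus that with DMSO was -0.16 for Plau (-0.23 to -0.09), -0.26 for Plaur (-0.34 to -0.17) and -0.29 for F10 (-0.42 to -0.15). For these 3 genes the interval lay below 0. For Plaur and F10 the normal medium library with CH223191 was the one that stood apart, being the highest of the 4. For F3, F7, F13a1, Thbs1 and Serpinb2 the interval included 0. It was narrow for F7, at -0.07 (-0.17 to 0.02), and for Thbs1, at 0.08 (-0.09 to 0.25), and wide for F13a1, at 0.32 (-0.71 to 1.35).

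Levels between genes were compared per length, as FPKM, the CPM divided by the gene's length in kilobases as the table gives it. In normal medium with DMSO, Plau was the most abundant transcript of the 8 at 326 FPKM, followed by F7 at 178, Plaur at 115 and F10 at 36.5. Thbs1 (6.35) and F3 (5.36) were far lower, and Serpinb2 (0.347) and F13a1 (0.205) were at the bottom. In 4T1-CM with DMSO the order opened with Thbs1 at 156 FPKM and went on with Plau at 134, F7 at 85.3, Plaur at 72.8, F10 at 36.8, Serpinb2 at 20.1, F3 at 5.29 and F13a1 at 2.11. The order in 4T1-CM with CH223191 was the same, and in normal medium with CH223191 only F3 and Thbs1 changed places, at 6.35 and 6.11 FPKM.

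The level of Plau relative to Serpinb2 was lower in both libraries in 4T1-CM than in either in normal medium. Both genes were chosen with their ratios known, and other inhibitors of uPA are not part of this comparison. Plau exceeded Serpinb2 by 939-fold per length in normal medium with DMSO and by 1855-fold with CH223191, and by 6.67-fold and 11.4-fold in 4T1-CM. Both values in normal medium rest on few reads of Serpinb2, 13 and 6. Plau exceeded its receptor Plaur by 2.84-fold and 2.17-fold in normal medium and by 1.84-fold and 1.50-fold in 4T1-CM. F7 exceeded F10 by 4.87-fold and 4.15-fold in normal medium and by 2.32-fold and 2.29-fold in 4T1-CM. The 8 genes together took a near constant share of the reads, 0.160%, 0.158%, 0.178% and 0.171%, but Plau supplied 49.6% of these reads in normal medium with DMSO and 17.7% in 4T1-CM with DMSO, and Thbs1 2.48% and 52.9%.

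**Figure D3:**
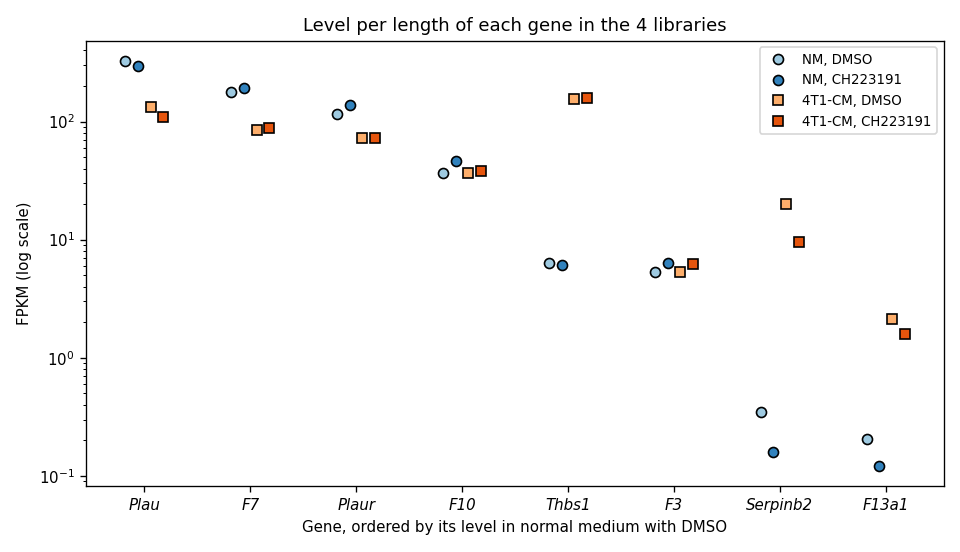
Level per length of each gene in the 4 libraries, in FPKM on a log axis (NM, normal medium, circles; 4T1-CM, squares; 1 library per point). Thbs1 moves from 6.35 to 156 FPKM and past Plau, and Serpinb2 from 0.347 to 20.1 FPKM and past F3.

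The rest of both pathways was read from 8 lists of 66 genes, of which 45 were kept, 17 had 0 reads in all 4 libraries and 4 had reads but fewer than 10 in each. Counted at 2-fold as all genes were, the DMSO libraries placed 10 of the 45 above and 5 below their level without 4T1-CM (12.2% and 6.12% of all genes), and the CH223191 libraries placed 10 above and 7 below (12% and 7.86%). For the inhibitor, 3 lay above and 2 below in normal medium (4.84% and 3.31% of all genes), and 0 above and 3 below in 4T1-CM (2.8% and 2.62%). Some of these rest on 3 reads or fewer in a library. With such counts set to 3 reads, the numbers above and below were 9 and 5, 10 and 6, 1 and 2, and 0 and 2. Over the 45, the median log2 ratio was 0.15 and 0.10 for 4T1-CM and -0.06 and -0.03 for CH223191. In both comparisons for 4T1-CM, 7 were higher and 5 lower (8.18% and 3.38% of all genes), or 6 and 4 with the low counts set to 3 reads.

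Among the other plasminogen genes, 10 of 14 were kept. With DMSO 3 were at least 2-fold higher in 4T1-CM and 0 lower, beside 12.2% and 6.12% of all genes. With CH223191 the numbers were again 3 and 0, beside 12% and 7.86%, but the 3 genes were not all the same. Serpine2, a serpin that inhibits thrombin and uPA, had 2, 5, 45 and 20 reads. Plat, the tissue-type activator, was low throughout, with 14, 8, 31 and 22 reads. Its log2 ratio for 4T1-CM was 0.98 with DMSO (0.06 to 2.04) and 1.37 with CH223191 (0.21 to 2.81). Plasminogen itself (Plg), vitronectin (Vtn) and Cpb2, a carboxypeptidase that protects fibrin, had 0 reads in every library. A count of 0 allows up to 0.189 CPM.

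Transcripts of some proteins that can bind plasminogen at the cell surface or clear its activators were abundant. Protein at the surface was not measured. Anxa2, a plasminogen receptor, was at 273, 358, 202 and 217 FPKM, and Eno1, which encodes alpha-enolase, another surface binder of plasminogen, at 139, 140, 295 and 276 FPKM. Eno1 was high in both libraries in 4T1-CM (log2 ratio 1.08 and 0.98). Lrp1, the endocytic receptor of uPA bound to its inhibitor, was at 146, 139, 102 and 104 FPKM. Of the 6 integrin partners of uPAR, all were kept, 0 were at least 2-fold higher, and 1, Itgb3, was lower in the comparison with CH223191 alone. Itgb2, the leukocyte integrin beta chain, led them at 997, 1213, 769.5 and 773 FPKM.

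Of the other 13 clotting factors and fibrin genes, 5 were kept and 6 had 0 reads in all libraries (F2, F12, F13b, Fga, Fgb and Fgg), so neither prothrombin nor any fibrinogen chain was detected. Tgm2, tissue transglutaminase, an enzyme of the same family as factor XIII, had 1675, 2359, 15511 and 16996 reads, with a log2 ratio of 3.08 with DMSO and 2.82 with CH223191 (2.76 to 2.88). Vwf, the von Willebrand factor that carries factor VIII and tethers platelets, went the other way with 1540, 1133, 491 and 409 reads, at -1.78 (-1.93 to -1.64) and -1.50 (-1.67 to -1.34). In each comparison for 4T1-CM these were the only ones past 2-fold, 1 higher and 1 lower. Over all genes the shares higher and lower were 12.2% and 6.12% with DMSO, and 12% and 7.86% with CH223191. Tgm2 overlaps the gene Rprd1b on the opposite strand.

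The vitamin K cycle, read from 4 genes, makes the carboxyl groups that factors VII and X need. Of the 4, only Vkorc1 was at least 2-fold lower in both comparisons for 4T1-CM, beside 3.38% of all genes. It had 47, 76, 20 and 34 reads, and it shares 44.7% of its 50-base words with the overlapping gene Gm21974. Nqo1, which reduces quinones and is a known AHR target, had 28, 18, 70 and 33 reads. Its log2 ratio for CH223191 was -0.62 (-1.57 to 0.27) in normal medium, an interval that includes 0, and -0.97 (-1.62 to -0.36) in 4T1-CM. Of the 10 clotting inhibitors 5 were kept. Tfpi2 had 6, 7, 28 and 15 reads and was the only one at least 2-fold higher in both comparisons for 4T1-CM. Procr, the endothelial protein C receptor, had 315, 558, 696 and 609 reads, with its only low value in normal medium with DMSO, and Tfpi, which blocks the tissue factor complex, was at 2.22, 2.27, 3.26 and 3.28 FPKM.

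The protease-activated receptors were near the detection limit. F2r, the thrombin receptor PAR1, had 11, 11, 37 and 33 reads, a log2 ratio of 1.57 with DMSO (0.61 to 2.73) and 1.51 with CH223191 (0.53 to 2.69), and F2rl3, which encodes PAR4, had 16, 4, 3 and 1. The counts of F2rl3 in 4T1-CM were too few for a fold. With low counts set to 3 reads, 0 listed genes were at least 2-fold higher or lower with CH223191 in both media.

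In the serpin clade of PAI-2, 6 of 8 genes were kept. In 4T1-CM 0 were at least 2-fold higher in either comparison, beside 12.2% and 12% of all genes. In both comparisons 2 were lower, beside 3.38%. Serpinb1a, an inhibitor of neutrophil proteases, had 187, 218, 37 and 43 reads, with log2 ratios of -2.46 (-3.02 to -1.96) and -2.36 (-2.88 to -1.90). Serpinb6b had 739, 1062, 219 and 206 reads, at -1.89 (-2.11 to -1.67) and -2.39 (-2.62 to -2.18). Among the kept genes of the clade, listed genes and Serpinb2 together, only Serpinb2 was at least 2-fold higher. It was chosen with that ratio known, so nothing is read from this contrast.

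Of the other thrombospondin genes and receptors, 6 of 7 were kept. Thbs2 had 3, 22, 67 and 92 reads and Thbs3 had 0, 4, 6 and 10, too few for a fold in normal medium with DMSO. Cd36, the scavenger receptor that binds thrombospondin 1, was at 1105, 1219.8, 555 and 581 FPKM, its ratio for 4T1-CM just short of 2-fold lower with DMSO and just past it with CH223191 (log2 ratio -1.07), and Cd47, its other receptor, was at 20.3, 17.0, 38.1 and 37.6 FPKM, with log2 ratios of 0.91 and 1.14. The ratios of these receptors thus lay on opposite sides of 0, and Cd36 was lower where Thbs1 was higher.

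**Figure D4:**
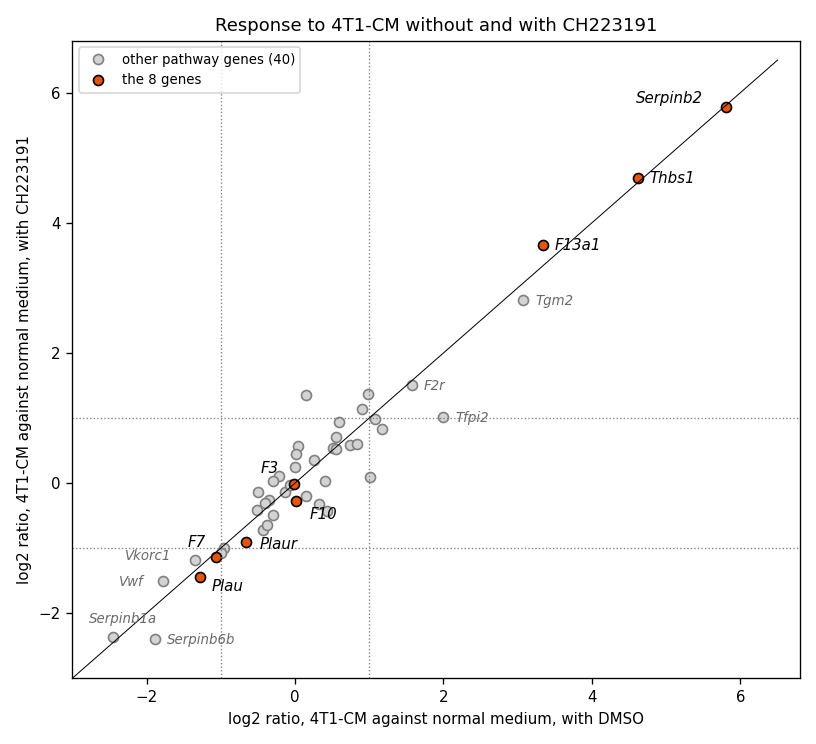
Log2 ratio for 4T1-CM against normal medium with DMSO (x axis) and with CH223191 (y axis) for the 8 genes and for 40 of the other listed genes with more than 3 reads in every library (1 library per condition; dotted lines, 2-fold; diagonal, equal ratios). Serpinb2, Thbs1, F13a1 and Tgm2 lie at the upper right, and Serpinb1a, Serpinb6b, Vwf, Plau and F7 at the lower left.

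The genes with the closest pattern over the 4 libraries were sought among the 10811 protein-coding genes that had 10 reads or more in each library, by the root mean square distance of log2 CPM centred on each gene's mean. With 4 libraries the measure describes these libraries alone. For Serpinb2 the closest were Mmp8 at a distance of 0.237, Cav1 at 0.323 and Tlr2 at 0.363. For Thbs1 they were Cxcl16 at 0.071, C3 at 0.129 and Aoah at 0.144, and for F13a1 they were Slc7a11 at 0.115, Trpm2 at 0.137 and Carmil1 at 0.182. Serpinb2, F13a1 and Thbs1 had their closest member within this trio but were far apart, at 0.771 for Serpinb2 with Thbs1 and 0.646 for F13a1 with Thbs1.

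For the genes that were lower or level, many more genes lay close. The distance was not scaled to the size of a change, and most genes changed little. A gene that changed little thus has more close genes by construction, and nothing is read from this contrast. Within 0.1 of Plau lay 19 genes, led by Cdk18 at 0.035, Vamp5 and Slc39a2, and within 0.1 of F7 lay 112, led by Erp29 at 0.015, Psmb10 and Pimreg. Plaur had 251 such genes (Brms1, Fis1 and Dtnbp1 first), F3 511 (Zfp661, Tmem106c and Fam213b) and F10 626 (Hcls1 and Gatd1 among the first). Serpinb2 and F13a1 had 0, and Thbs1 had 1. Closest among the members were F3 and F10, at 0.094, and F7 and Plaur, at 0.165. Neither pair stood out from the other genes. Nearer to F3 than F10 was lay 422 genes, and nearer to F10 than F3 was lay 516. Nearer to F7 than Plaur was lay 351 genes, and nearer to Plaur than F7 was lay 823.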

How the data were processed

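Read counts per gene, as whole numbers without normalization, were deposited by the authors in 1 table of 54532 genes with 1 column for each of the 4 libraries, which were matched to conditions by name. The submitters' processing notes name HISAT2 2.0.5 and DESeq2 without a role. The methods name an aligner and a counter only for other samples of the study. Whether counting used the strand is not stated, so genes that overlap are uncertain. F13a1 and Thbs1 overlap genes on the opposite strand that had 0 reads in every library.

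A gene was kept where any library held 10 reads or more (13715 genes, of them 11895 protein-coding). Library sizes were multiplied by TMM factors (edgeR 4.0.16, R 4.3.3) of 0.986 to 1.03. FPKM used the table's gene length. For log2 ratios 0.5 was added to every count before division by the scaled library size. No fold is given against a library that held at most 3 reads of the gene (0.189 CPM). Intervals of ratios (Clopper-Pearson) and of levels (Poisson) were computed with scipy 1.17.1 at 95% and cover counting error only. The interval of a difference of 2 responses used the normal approximation on the logarithm of the counts. Calculations were tested on simulated data with known answers.

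The members and gene lists were chosen with earlier results of these data known. The text names the 8 members, listed genes past 2-fold in 1 direction in both comparisons for 4T1-CM or for CH223191, up to 3 more per list by highest FPKM, and, for each member, the 3 genes closest in pattern. Plat, Plg, Nqo1, Procr, Tfpi, Cd47, Itgb3 and the listed genes at 0 were added for their roles after their values were seen. Coordinates are of GRCm38 (GENCODE M21), in which all 8 members had the start, end and strand given in the table, as had 53499 of 54409 shared genes. Promoter windows are from RefSeq (GRCm38.p6). Protein sequences were not analysed here, and a few genes that the rule names are not reported here. Alternatives were DESeq2 1.42.0 size factors, total counts, other filters, a prior count of 5, protein-coding genes only, and an additive fit by edgeR's quasi-likelihood test.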

Additional observations from a re-analysis of the deposited data

Results flagged for a closer look

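For 2 of the genes the paired libraries of a contrast pointed in opposite directions. F10 had a log2 ratio for 4T1-CM of 0.01 with DMSO and -0.28 with CH223191, a difference of -0.29. Thbs1 had log2 ratios for CH223191 of -0.06 (normal medium) and 0.02 (4T1-CM), a difference of 0.0797. With 1 library per condition neither difference was tested. The counting interval of the difference was -0.42 to -0.15 for F10, and for Thbs1 each of the 2 ratios had an interval that includes 0. With total counts in place of TMM scaling, the ratio of F10 with DMSO was -0.0292, so that both of its ratios then lay below 0.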

How the results depend on the processing

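Each condition had 1 library, so no replicate could be left out and the error between cultures was not measured. Genes with few reads, above all Serpinb2 and F13a1 in normal medium, have wide intervals. Of the 12 counts of members, all were unchanged or within 1.5 times under DESeq2 size factors, total counts, no filter and protein-coding genes only. With at least 10 reads in every library (11765 genes, 7 members, Serpinb2 left out) the count of members at least 2-fold lower with CH223191 was 0 in normal medium, 0 in 4T1-CM and 0 in both. With a prior count of 5 it was 0 in normal medium and 0 in both. Of the 32 log2 ratios of members, 30 kept their sign under the 3 settings that changed them. Plaur for CH223191 in 4T1-CM went from 0.0023 to -0.0096 (DESeq2 size factors) and -0.0061 (total counts), and F10 for 4T1-CM with DMSO from 0.0123 to -0.0292 (total counts), all within counting error of 0. The largest move was that of Serpinb2 for 4T1-CM with CH223191, from 5.78 to 5.04 with a prior count of 5. With total counts, ratios for CH223191 in normal medium became -0.19 for Plau, 0.20 for Plaur and 0.05 for F7, and the median of all genes moved by at most 0.0576.

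Over all genes, counts higher and lower at 2-fold for 4T1-CM with DMSO, for 4T1-CM with CH223191, for CH223191 in normal medium and for CH223191 in 4T1-CM were 4656 and 2501, 4420 and 2946, 2812 and 2261, and 2583 and 2688 without a filter (21917 genes), against 822 and 521, 824 and 717, 226 and 90, and 83 and 52 with at least 10 reads in every library. Those for CH223191 were 363 and 168, then 183 and 139, with a prior count of 5, and 363 and 261, then 159 and 210, among protein-coding genes. In both comparisons for 4T1-CM the counts were 2062 and 860 without a filter, and 567 were higher with the strict one. For CH223191 in both they were 539 and 450, 18 and 4, 24 and 9, and 29 and 32 under these settings in turn. The additive fit of edgeR over the 4 libraries had 1 residual degree of freedom. Its error came from how far the responses to 4T1-CM differed with and without CH223191, not from replicate cultures. Its p-values therefore do not measure the spread between cultures. The fit gave the 8 members the direction of their mean log2 ratios for both terms. It called 2248 genes higher and 2228 lower for 4T1-CM at an adjusted p under 0.05, and 10 higher and 1 lower for CH223191, where 880 had an unadjusted p under 0.05.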
